A study of Mus musculus with 16 samples.

Results

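The RNA of 10 genes for apolipoproteins and for the proteins that build and remodel lipoproteins was described in mouse liver: Apob and Mttp, which make the particle, Pltp, which moves phospholipid between particles, and the apolipoproteins Apoa1, Apoa2, Apoa4, Apoa5, Apoc2, Apoc3 and Apoe. They were taken by gene symbol, are 10 of the 25719 genes measured, and all 10 were abundant enough to be tested in every comparison. Whole-liver RNA was sequenced from 16 male mice fed at an age of 8 to 12 weeks, with 1 library per mouse. The groups were 4 WT mice (strain C57BL6J) on normal chow diet (NCD), 5 WT mice on the steatosis-steatohepatitis diet (SSD), which is enriched in fat, fructose and cholesterol, 4 Klrk1 KO mice (strain label NKG2D, here Klrk1-/-) on NCD and 3 Klrk1-/- mice on SSD. Feeding lasted 3 weeks. Klrk1 encodes NKG2D, an activating receptor of natural killer cells and T cells, and the study asked what this receptor does early in diet-induced liver disease. The labels give the knockout without any restriction to a cell type, and no source used here says that WT and Klrk1-/- mice were littermates, so genotype and colony cannot be told apart.

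Hepatocytes secrete very-low-density lipoprotein (VLDL), a droplet of triglyceride and cholesterol ester with apolipoprotein B wrapped around it. Microsomal triglyceride transfer protein loads apolipoprotein B with lipid inside the endoplasmic reticulum. In plasma, smaller apolipoproteins move between particles and decide their fate: some activate lipoprotein lipase, some inhibit it, some are ligands for the receptors that return remnants to the liver, and others form the scaffold of high-density lipoprotein (HDL). The liver makes most of these proteins, and several of their genes lie side by side in clusters.

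Libraries held between 19892025 and 28936707 reads on genes. Klrk1 itself was measured at normalized counts of 20.1 to 71.1 in the 9 WT mice and of 0.966 to 8.71 in the 7 Klrk1-/- mice. The 8 hepatocyte markers were abundant in every mouse, and with the deposited scaling their sum was lower on SSD. It was 2579700 to 2981610 in WT mice on NCD and 1872160 to 2109940 on SSD, and 2451180 to 3074540 and 2221680 to 2408510 in Klrk1-/- mice. Taken singly, not all 8 were called for the diet in either genotype. WT SSD mouse 1 stood apart from the other 4 mice of its group: its markers of lipid-associated macrophages (Trem2, Gpnmb, Cd9, Mmp12 and Itgax) summed to a normalized count of 5074, against 1487 to 1667 in those 4 mice. The diet changes of Apoa4, Pltp and Lpl in WT mice are therefore also given without this mouse. Values of the marker genes are given with all mice only. The summed normalized counts over all genes were 25001171 to 27985228 on NCD and 19222033 to 22666465 on SSD, and scaling every library to the same total moved the median log2 change over all genes, which was -0.00 in these comparisons, to 0.34 for the diet in WT mice, to 0.25 for the diet in Klrk1-/- mice and to -0.115 for the genotype on SSD.

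The 10 genes took a large part of the liver transcriptome. Together they held 4.05% to 4.69% of the reads of WT mice on NCD, 5.08% to 5.42% of those of WT mice on SSD, 4.72% to 5.46% in Klrk1-/- mice on NCD and 5.50% to 6.34% in Klrk1-/- mice on SSD. Each SSD-fed mouse had a larger share than each NCD-fed mouse of the same genotype. With mitochondrially encoded genes left out of the total this held in WT mice, but the Klrk1-/- groups overlapped, at 5.43% to 6.51% on NCD and 5.96% to 6.97% on SSD. With the 50 genes with most reads left out (the 10 genes kept), the diets overlapped in both genotypes. Apoe, the ligand through which remnant particles bind their receptors, was the largest contributor in every mouse and alone took 1.81% to 2.09% of reads in WT mice on NCD and 2.88% to 3.36% in Klrk1-/- mice on SSD. Shares are relative to all other genes, and the summed normalized counts of the 10 genes did not separate the diets, with 1011890 to 1222460 in WT mice on NCD and 995991 to 1133030 in WT mice on SSD.

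**Figure D1:**
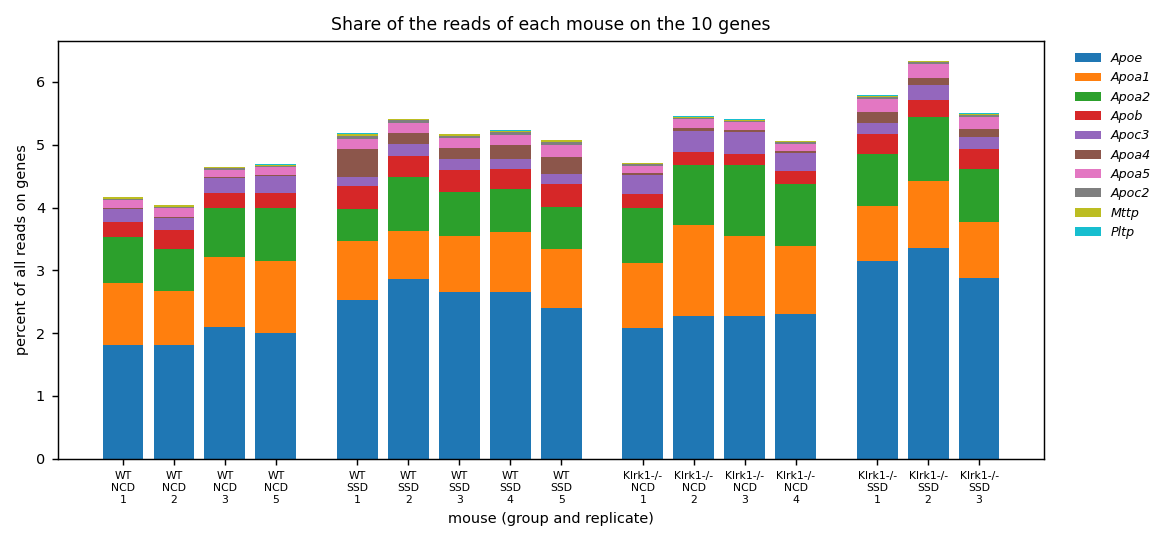
Percent of the reads on genes (vertical axis) that fell on each of the 10 genes, stacked, for each of the 16 mice (horizontal axis, group and replicate number). Apoe is the tallest segment of every bar, and the whole bars reach 4.05% to 4.69% in WT mice on NCD and 5.50% to 6.34% in Klrk1-/- mice on SSD.

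Per kilobase of gene length, the levels of the 10 genes in WT mice on NCD ran from Apoe down to Pltp. Apoe was at a normalized count per kilobase of 582356 ± 44358 (SD, n = 4), followed by the HDL proteins Apoa2 at 407243 ± 47303 and Apoa1 at 331269 ± 46229, whose ranges over the mice overlapped. Apoc3, an inhibitor of lipoprotein lipase, followed at 123043 ± 17321 and Apoa5, an activator of triglyceride breakdown, at 29230 ± 2794. Apob at 8779 ± 768 and Apoc2 at 8332 ± 769 overlapped, and so did the neighbours at the end of the order, Apoa4 at 2263 ± 318 with Mttp at 1779 ± 261, and Mttp with Pltp at 1560 ± 153. The place of Apoc2 is uncertain, because Gm44805 shares 646 exon bases with it on the same strand and the counting could split reads between them. With the deposited length, Apoe held the highest place by mean and Apoc3 the place after the HDL proteins in all 4 groups. In Klrk1-/- mice on NCD the ranges of Apoe and Apoa2 overlapped. On SSD, Apoa4 moved up among the 10 from place 8 to place 6 in both genotypes and reached 28723 ± 11417 (SD, n = 5) in WT mice, where its range overlapped that of Apoa5. With the exon length of the annotated transcripts in place of the deposited length, a choice made after seeing the data, Apoa2 stood above Apoe in every group, Apoa4 moved from place 8 to place 4 in WT mice and from place 7 to place 5 in Klrk1-/- mice, and Apoc3 came after Apoa4 in WT mice on SSD, so the order depends on the length used.

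SSD against NCD in WT mice asked how the diet alone acts on the liver. Apoa4 rose 12.1-fold and Apoc2, the cofactor of lipoprotein lipase, rose 1.72-fold, whereas Apoc3 and Apoa1 fell to 0.568 and 0.687 of their NCD levels, although both the call and the sign of Apoa1 depended on the scaling. Of the 10 genes, 2 were called higher and 2 lower at an adjusted p under 0.05 (limma's trend method over 13091 genes), against 17.3% of all genes called higher, 17.6% called lower and 34.9% called in either direction. The median log2 fold change of the 10 genes was -0.02, beside -0.00 for all genes tested. At an unadjusted p under 0.05, 6 of the 10 passed, against 45.4% of all genes. The 2 diet groups did not overlap for 4 of the 10 genes, which was also so for 29.0% of all genes.

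SSD against NCD in Klrk1-/- mice asked the same without NKG2D. Apoa4 rose 3.38-fold, Apoa5 1.38-fold and Apoc2 1.33-fold, and Pltp fell to 0.273, Apoc3 to 0.545 and Apoa1 to 0.655 of the NCD level, the sign and call of Apoa1 again depending on the scaling. Here 3 of the 10 genes were called higher and 3 lower (limma, 12904 genes), against 13.4%, 16% and, in either direction, 29.4% of all genes. The median log2 fold change was 0.18, beside -0.00 for all genes. At an unadjusted p under 0.05, 8 of the 10 passed, against 41.4% of all genes. The groups did not overlap for 6 of the 10, and for 37.6% of all genes. With 3 mice against 4 the exact permutation test cannot go below 0.0571.

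**Figure D2:**
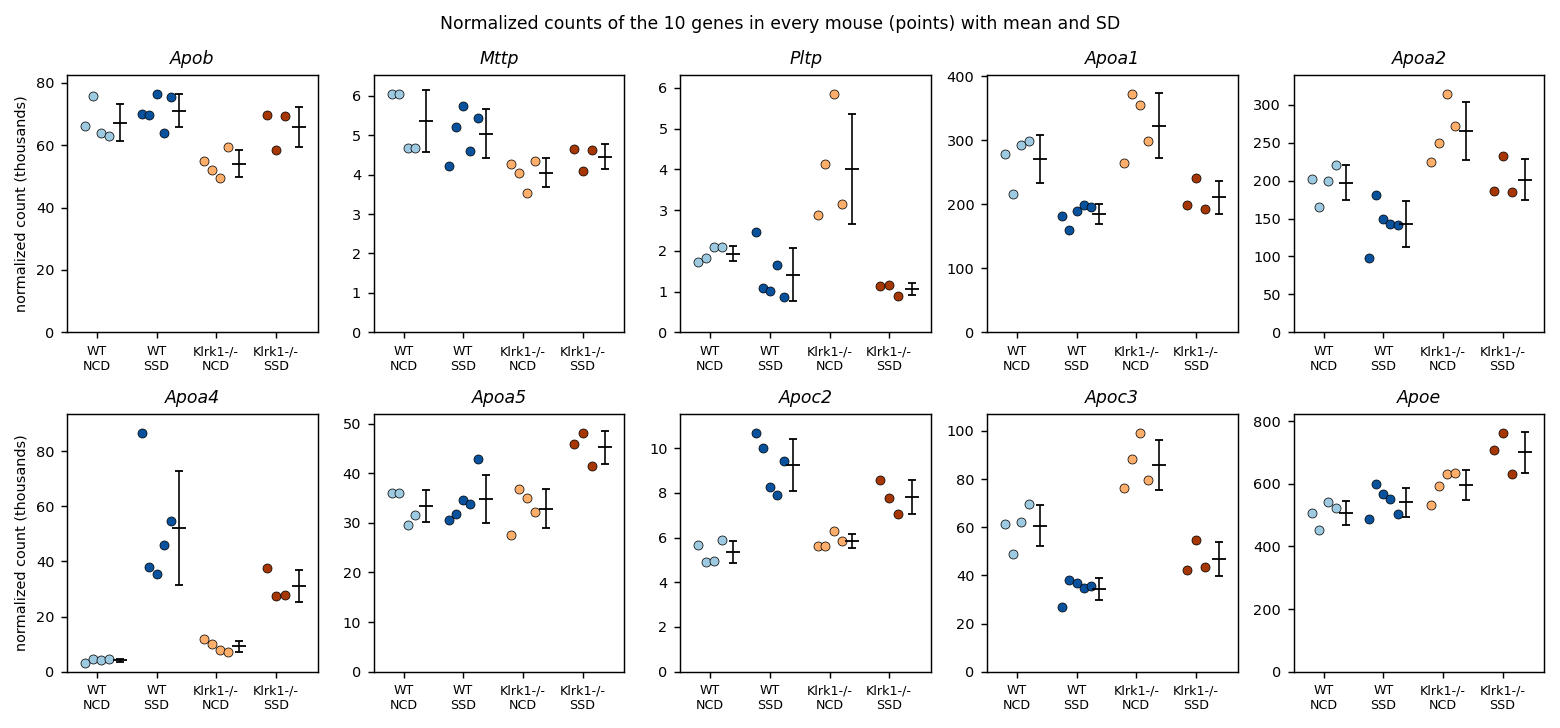
Normalized counts divided by 1000 (vertical axis, from 0) of each of the 10 genes in every mouse (points), by group, with the group mean and SD (bars at the right of the points). The Apoa4 points on SSD, 27364 to 86599, all lie above those on NCD, 3314 to 11720, and the Pltp points of Klrk1-/- mice on NCD, 2889 to 5859, lie above those of all other mice.

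Apoa4 encodes an apolipoprotein of chylomicrons and HDL that mice make in the liver as well as in the intestine. Its normalized counts in WT mice on NCD were 3314, 4447, 4063 and 4608. In WT mice on SSD they were 86599, 37963, 35265, 46030 and 54807. The lowest SSD-fed WT mouse was above the highest NCD-fed WT mouse by a wide gap, and WT SSD mouse 1 was the highest of all. The log2 fold change was 3.60 (SE 0.23, limma adjusted p 5.6e-07, exact permutation p 0.0159, the smallest possible here), and it was 3.39 without WT SSD mouse 1. Klrk1-/- mice had 11720, 10093, 7851 and 7278 on NCD and 37747, 27364 and 27954 on SSD. Again the diets did not overlap, but the Klrk1-/- mice started higher and ended within or below the range of the WT mice. Their log2 fold change was 1.76 (SE 0.17, limma adjusted p 1.7e-05, exact permutation p 0.0571). By mean normalized count Apoa4 moved from place 773 among all genes to place 47 in WT mice, and from place 321 to place 77 in Klrk1-/- mice. In bulk tissue, more or fewer cells of a type and more or less RNA per cell cannot be told apart. The enterocyte genes Sis, Alpi, Cdx1 and Cdx2 had no read in any of the 16 mice, and Lct reached at most 1.90. Fabp2, a fatty acid-binding protein and the sixth gene of the enterocyte list, had mean normalized counts of 1363 and 3950 in WT mice on NCD and SSD and of 1686 and 3005 in Klrk1-/- mice. It rose on SSD by 1.56 in WT mice (SE 0.13, limma adjusted p 4.8e-06) and by 0.82 in Klrk1-/- mice (SE 0.10, adjusted p 0.00016) on the log2 scale. Its interaction was -0.74 (SE 0.18, adjusted p 0.064), with the sign of that of Apoa4, and its part in the result was not tested. With the deposited scaling, limma called 4 of 8 hepatocyte markers in WT mice and 5 of 8 in Klrk1-/- mice, all lower on SSD. Of all genes, 34.9% and 29.4% were called in either direction. Calls of these markers under other scalings are not given.

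Apoa4 lies in a cluster with Apoa1, Apoc3 and Apoa5 on chromosome 9, in the order Apoa1 (chr9:46139878-46141764, plus strand), Apoc3 (chr9:46144231-46146934, minus strand), Apoa4 (chr9:46151994-46154757, plus strand) and Apoa5 (chr9:46179931-46183217, plus strand), in coordinates of GRCm39 as deposited. The 4 genes span 43340 bases, with gaps of 2466, 5059 and 25173 bases. Genes of this cluster moved in different directions on SSD: Apoa1 and Apoc3, side by side, both fell with the deposited scaling (Apoa1 turned to 0.17 and 0.20 under quantile normalization), Apoa4 next to Apoc3 rose, and Apoa5 rose in Klrk1-/- mice and was not called in WT mice, where it was called higher with the same total per library and under quantile normalization. The plot of the cluster sets these changes at their positions.

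**Figure D3:**
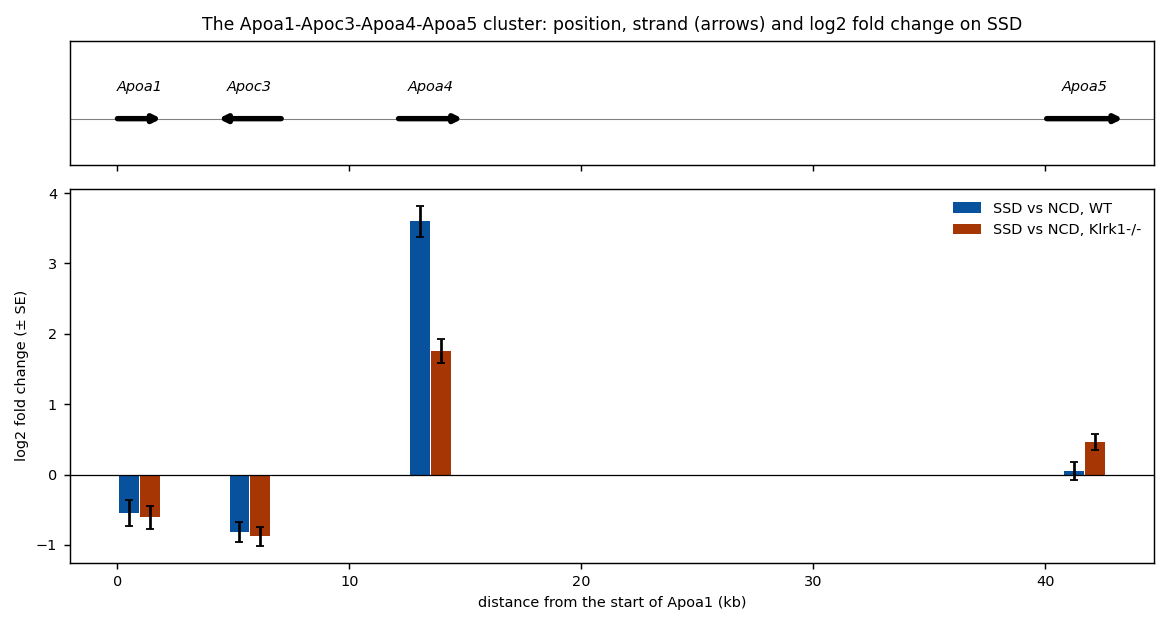
Upper panel, position and strand (arrows) of Apoa1, Apoc3, Apoa4 and Apoa5 in kilobases from the start of Apoa1; lower panel, log2 fold change of SSD against NCD with its SE in WT mice (n = 5 against 4) and Klrk1-/- mice (n = 3 against 4). Apoa4 stands at 3.60 and 1.76, and Apoc3, on the minus strand with a gap of 5059 bases to it, at -0.82 and -0.88.

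The promoters of 3 genes of this cluster are shown because their RNA moved differently on the same diet. Each is the 250 bases before a start site in RefSeq (GRCm38.p6, plus strand), at chr9:46228380-46228629 for Apoa1, chr9:46240594-46240843 for Apoa4 and, for the more upstream start of Apoa5, chr9:46268358-46268607. Of the 10 genes, 9 matched a promoter in this collection, and Apoc3 did not. Capitals mark, on either strand, AGGTCA, a sequence read by many nuclear receptors, and CAAAGNNCA, a core of sites for hepatocyte nuclear factor 4.
Apoa1: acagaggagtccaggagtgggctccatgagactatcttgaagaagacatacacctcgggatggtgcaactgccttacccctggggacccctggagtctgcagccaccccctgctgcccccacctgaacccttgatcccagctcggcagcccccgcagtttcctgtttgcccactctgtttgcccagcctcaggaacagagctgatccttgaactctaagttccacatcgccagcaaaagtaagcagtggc
Apoa4: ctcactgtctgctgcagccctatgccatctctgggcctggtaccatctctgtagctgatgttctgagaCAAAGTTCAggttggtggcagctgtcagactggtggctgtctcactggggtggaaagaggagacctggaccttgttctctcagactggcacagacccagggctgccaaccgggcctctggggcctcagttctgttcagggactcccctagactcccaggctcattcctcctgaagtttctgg
Apoa5: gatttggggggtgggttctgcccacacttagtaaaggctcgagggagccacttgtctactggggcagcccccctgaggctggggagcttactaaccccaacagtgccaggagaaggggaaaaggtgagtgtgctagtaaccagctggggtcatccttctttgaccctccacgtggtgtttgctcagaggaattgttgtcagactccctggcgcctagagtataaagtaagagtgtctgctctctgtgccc

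The Apoa4 window holds CAAAGNNCA once, between 182 and 174 bases before the start, and the windows of Apoa1 and Apoa5 hold neither sequence. The CAAAGNNCA core was also found in the window of Apob and AGGTCA in those of Apoc2 and, at its upstream start, Apoa2. Over the 32851 RefSeq promoter windows of this length, 5.49% held CAAAGNNCA and 14.0% held AGGTCA. These are matches of letters, and no binding was measured.

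Apoc3 encodes an inhibitor of lipoprotein lipase and of remnant uptake. Its normalized counts in WT mice were 61452, 49053, 61996 and 69648 on NCD and 26826, 38003, 36622, 34725 and 35531 on SSD. Klrk1-/- mice had 76223, 88242, 99142 and 79598 on NCD and 42300, 54750 and 43360 on SSD. In both genotypes every SSD-fed mouse was below every NCD-fed mouse, and WT SSD mouse 1 was the lowest. Apoc3 fell by 0.82 in WT mice (SE 0.14, limma adjusted p 0.00134, exact permutation p 0.0159) and by 0.88 in Klrk1-/- mice (SE 0.13, adjusted p 0.00053, exact p 0.0571) on the log2 scale. The direction held under each scaling, but under quantile normalization the fall in WT mice was 0.22 and was not called (adjusted p 0.16). With the deposited scaling the summed hepatocyte markers were also lower on SSD, without overlap of the diets in either genotype. Relative to the total over all genes the diets overlapped in Klrk1-/- mice. There the sum was 2408510 of 21861121 in SSD mouse 3 and 2451180 of 25522136 in NCD mouse 1. The part of these markers in this result and in that of Apoa1 was not tested.

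Apoa1 encodes the main structural protein of HDL. It was at 277961, 215699, 292026 and 298226 in WT mice on NCD and at 181219, 159956, 189668, 199255 and 195930 on SSD. In Klrk1-/- mice the values were 264244, 372920, 355590 and 299007 on NCD and 198561, 240865 and 192793 on SSD. Within each genotype the diets did not overlap. The log2 fold changes were -0.54 (SE 0.18, limma adjusted p 0.0377, exact permutation p 0.0159) and -0.61 (SE 0.17, adjusted p 0.0170, exact p 0.0571). Both calls depended on how libraries were scaled: with the same total per library they were -0.20 and -0.35, and neither was called, and under quantile normalization they turned to 0.17 and 0.20. In WT mice the call was also lost when any of 7 of the 9 mice was left out, all but WT NCD mouse 2 and WT SSD mouse 1, at -0.57 to -0.49. In Klrk1-/- mice it was lost without NCD mouse 2 (-0.54), SSD mouse 1 (-0.57) or SSD mouse 3 (-0.55).

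Apoa2 (chr1:171052623-171053948, plus strand, GRCm39) encodes another abundant HDL protein and was not called by limma in any of the 5 comparisons with the settings used throughout. It ranged over normalized counts of 165702 to 220620 in WT mice on NCD and 97456 to 181402 on SSD, and over 224212 to 314533 and 184928 to 232107 in Klrk1-/- mice. The diets overlapped in both genotypes. Its log2 fold changes on SSD were -0.49 (SE 0.20, limma adjusted p 0.0792) and -0.40 (SE 0.16, adjusted p 0.0808), with the same sign as those of Apoa1, and under quantile normalization they were 0.02 and 0.30, the latter called in the opposite direction (adjusted p 0.033). Apoa2 was called lower on SSD by DESeq2 (adjusted p 0.013 in WT mice and 0.010 in Klrk1-/- mice) and with robust variances (adjusted p 0.037 and 0.033), and in WT mice also with all 4 groups in 1 model (adjusted p 0.035). In a later GENCODE annotation, where Apoa2 starts at 171049125, Tomm40l on the opposite strand shares 889 exon bases with it. Tomm40l ends at 171050277, before the deposited start of Apoa2, and had a mean normalized count of only 370. Whether reads were assigned by strand is not given in the sources used here.

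Apoc2 encodes the activator of lipoprotein lipase. Normalized counts in WT mice were 5644, 4905, 4956 and 5890 on NCD and 10677, 9990, 8257, 7880 and 9423 on SSD. Klrk1-/- mice had 5625, 5639, 6272 and 5856 on NCD and 8561, 7782 and 7070 on SSD. Every SSD-fed mouse was above every NCD-fed mouse of either genotype. Apoc2 rose by a log2 fold change of 0.78 in WT mice (SE 0.11, limma adjusted p 0.00027, exact permutation p 0.0159) and of 0.41 in Klrk1-/- mice (SE 0.09, adjusted p 0.0044, exact p 0.0571). It was called in this direction in every alternative without a fold limit, 21 in WT and 19 in Klrk1-/- mice, but its changes of 1.72-fold and 1.33-fold do not reach the fold limit of 2 and, in Klrk1-/- mice, that of 1.5. Its value is uncertain because Gm44805 shares 646 exon bases with it on the same strand, so that the counting could split reads between them. Apoc2 held 32.1% to 35.2% of the summed normalized counts of this pair in WT mice on NCD and 41.0% to 43.8% on SSD, while Gm44805 was at a log2 fold change of 0.24 (SE 0.11, adjusted p 0.111).

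Apoe encodes the ligand of remnant receptors and is also made by macrophages. It lies on chromosome 7 in a second cluster of apolipoprotein genes with Apoc2 (Apoc2 at chr7:19405504-19411866 and Apoe at chr7:19430034-19433113, GRCm39, both on the minus strand), which spans 27610 bases with Apoc4 and Apoc1 between them. The normalized counts of Apoe were 452543 to 542558 in WT mice on NCD, 486064 to 597978 in WT mice on SSD, 531683 to 633077 in Klrk1-/- mice on NCD and 630267, 708453 and 762230 in Klrk1-/- mice on SSD. The diets overlapped in both genotypes. Apoe was not called for the diet, with log2 fold changes of 0.10 (SE 0.22, limma adjusted p 0.768) and 0.23 (SE 0.17, adjusted p 0.339). Apoc1, next to Apoe, was not called either, at -0.21 (adjusted p 0.338) and -0.11 (adjusted p 0.628). With the same total per library, which shifts all genes upwards on SSD, Apoe was called at 0.44 (adjusted p 0.047) and 0.49 (adjusted p 0.010). Under quantile normalization it was called in Klrk1-/- mice at 1.10 (adjusted p 2.5e-06).

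Apob encodes the structural protein of VLDL, and Mttp the large subunit of the transfer protein that loads it with lipid. Apob lies at chr12:8027648-8066835 (plus strand) and Mttp at chr3:137795615-137850729 (minus strand) in GRCm39. With the deposited scaling, neither was called for the diet in either genotype. Apob was at 62806 to 75713 in WT mice on NCD and 63764 to 76491 on SSD, and at 49559 to 59467 and 58507 to 69571 in Klrk1-/- mice. Mttp was at 4678 to 6052 and 4227 to 5734 in WT mice, and at 3529 to 4348 and 4096 to 4645 in Klrk1-/- mice. All 4 of these pairs of ranges overlapped. The log2 fold changes on SSD were 0.08 (SE 0.13, limma adjusted p 0.646) and 0.28 (SE 0.11, adjusted p 0.0759) for Apob, and -0.09 (SE 0.12, adjusted p 0.606) and 0.14 (SE 0.09, adjusted p 0.272) for Mttp. Under the other scalings Apob was called higher in both genotypes, at 0.43 (adjusted p 0.0097) and 0.54 (adjusted p 0.0021) with the same total per library and at 0.56 (adjusted p 0.0055) and 0.42 (adjusted p 0.0016) under quantile normalization. In Klrk1-/- mice Apob was also called by DESeq2 (0.29, adjusted p 0.017) and, at 0.37, without Klrk1-/- SSD mouse 2. Mttp was called higher in Klrk1-/- mice with the same total per library (0.40, adjusted p 0.0092). The sign of Mttp in WT mice depended on the scaling, with 0.26 at the same total per library and 0.19 under quantile normalization.

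Apoa5, which promotes the breakdown of triglyceride by lipoprotein lipase, was at 36027, 35947, 29650 and 31665 in WT mice on NCD and at 30574, 31790, 34592, 33733 and 42866 on SSD. The WT groups overlapped over most of their range, and the log2 fold change was 0.05 (SE 0.13, limma adjusted p 0.774). Under the other scalings Apoa5 was called higher in WT mice too, at 0.40 with the same total per library (adjusted p 0.012) and at 0.55 under quantile normalization (adjusted p 0.0023). Klrk1-/- mice had 27628, 36723, 35013 and 32137 on NCD and 45930, 48105 and 41503 on SSD. Here the diets did not overlap, and Apoa5 rose by 0.46 on the log2 scale (SE 0.12, adjusted p 0.0109, exact permutation p 0.0571). This was so in all 19 alternatives without a fold limit, but the change of 1.38-fold does not reach a fold limit of 1.5. That the diet effect on Apoa5 differs between the genotypes was not established, since the interaction was 0.41 (SE 0.18, adjusted p 0.246).

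Pltp (chr2:164681438-164699631, minus strand, GRCm39) encodes phospholipid transfer protein, which passes surface lipid from shrinking triglyceride-rich particles to HDL. Klrk1-/- mice had normalized counts of 2889, 4136, 5859 and 3155 on NCD and 1126, 1161 and 891 on SSD. The SSD-fed Klrk1-/- mice were all far below the NCD-fed ones, and Pltp fell by 1.87 on the log2 scale (SE 0.20, limma adjusted p 4.6e-05, exact permutation p 0.0571), in all 19 alternatives without a fold limit as well. WT mice had 1723, 1828, 2084 and 2105 on NCD and 2453, 1089, 1011, 1648 and 876 on SSD. In the WT groups 4 SSD-fed mice were below every NCD-fed mouse and WT SSD mouse 1 was above them all, and the log2 fold change was -0.55 (SE 0.25, adjusted p 0.100). Without WT SSD mouse 1 it was -0.78 and was called (adjusted p 0.0030). Macrophages also express Pltp, and in that mouse the 6 macrophage markers summed to 8329 against 2911 to 4874 in the other 4 and the 6 Kupffer cell markers to 10824 against 5164 to 9510; their part in the result was not tested. In Klrk1-/- mice the macrophage markers summed to 1958 to 2291 on NCD and 2220 to 2584 on SSD. The Kupffer cell markers summed there to 3253 to 4067 and 4054 to 5293, and the lipid-associated macrophage markers to 543 to 661 and 1301 to 1419. The part of these markers in the fall of Pltp was not tested. Ctsa, on the opposite strand, shares 1252 exon bases with Pltp in the later annotation. It was at a log2 fold change of -0.31 (SE 0.09, limma adjusted p 0.0204) for the diet in Klrk1-/- mice.

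**Figure D4:**
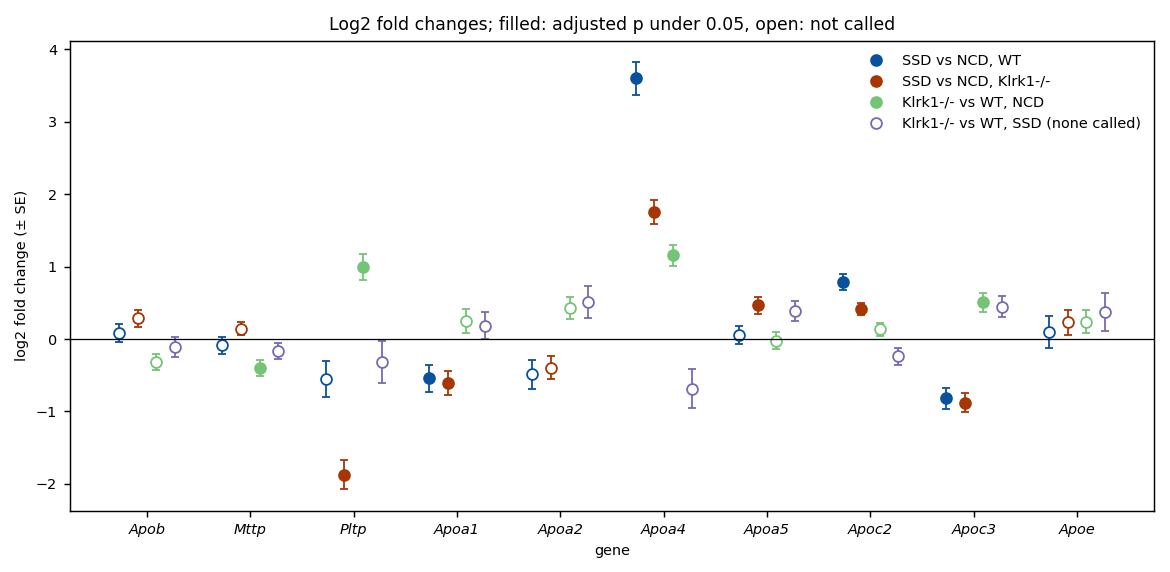
Log2 fold change (vertical axis) with its SE of the 10 genes (horizontal axis) in 4 comparisons, with filled points where the limma adjusted p was under 0.05 and open points where it was not. Filled points reach from 3.60 for Apoa4 on SSD in WT mice to -1.87 for Pltp on SSD in Klrk1-/- mice, and the comparison of genotypes on SSD has open points only.

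Klrk1-/- against WT on NCD compared the genotypes without the diet. Apoa4 was at 2.22 times, Pltp at 1.999 times and Apoc3 at 1.42 times the WT level in Klrk1-/- mice, and Mttp at 0.758 of the WT level. These were 3 genes called higher and 1 called lower of the 10 (limma, 12845 genes), against 6.41% of all genes called higher, 6.66% called lower and 13.1% called in either direction. The median log2 fold change of the 10 was 0.24, beside 0.00 for all genes. At an unadjusted p under 0.05, 6 of the 10 passed, against 31.0% of all genes. The genotypes did not overlap for 6 of the 10, against 19.3% of all genes.

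The called differences on NCD fell into a firm pair and a weaker pair. Apoa4 was higher by a log2 fold change of 1.15 (SE 0.15, limma adjusted p 0.00077, exact permutation p 0.0286, the smallest possible here) and Pltp by 0.9991 (SE 0.18, adjusted p 0.0046, exact p 0.0286). Both were called in all 20 alternatives without a fold limit, and Pltp, at 1.999-fold, just missed a fold limit of 2. Apoc3 was higher by 0.51 (SE 0.13, adjusted p 0.0291, exact p 0.0286), and the call was lost when WT NCD mouse 1, 2 or 3 or Klrk1-/- NCD mouse 2 or 3 was left out, with log2 fold changes of 0.41 to 0.52. Mttp was lower, at -0.40 (SE 0.11, adjusted p 0.0361, exact p 0.0286), and the call was lost without WT NCD mouse 1 or 2 or Klrk1-/- NCD mouse 1, 2 or 3, at -0.43 to -0.33. Apoa2 at 0.42 (SE 0.15, adjusted p 0.0817) and Apob at -0.31 (SE 0.11, adjusted p 0.0763) did not overlap between the genotypes either, but were not called. DESeq2 called both (adjusted p 0.0068 for Apoa2 and 0.0101 for Apob), and Apoa2 was also called by edgeR (adjusted p 0.046) and with robust variances (adjusted p 0.041). The lowest Klrk1-/- mouse had 7278 of Apoa4 against 4608 in the highest WT mouse, and for Pltp these values were 2889 and 2105. The Apoc3 values of 76223 to 99142 and of 49053 to 69648 lay closer together, as did the Mttp values of 3529 to 4348 and of 4678 to 6052.

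Klrk1-/- against WT on SSD compared the levels of the genotypes on the diet. None of the 10 genes was called by limma (13116 genes) or by edgeR's quasi-likelihood test, against 1.22% of all genes called higher, 1.68% called lower and 2.90% called in either direction. At an unadjusted p under 0.05, 4 of the 10 passed (Apoa2, Apoa4, Apoa5 and Apoc3), against 22.9% of all genes. DESeq2 called 3, Apoa5 at 0.38 (adjusted p 0.0324), Apoc3 at 0.45 (adjusted p 0.0224) and Apoe at 0.37 (adjusted p 0.00847). Over all genes DESeq2 also called more than limma, 535 higher and 685 lower, against 160 and 221. The median log2 fold change of the 10 was 0.04, beside -0.00 for all genes. Apoa2, Apoc3 and Apoe did not overlap between the genotypes, with every Klrk1-/- mouse above every WT mouse (exact permutation p 0.0357 for each, the smallest possible here), and this was so for 17.9% of all genes in either direction. Apoa4 was at a mean of 31022 ± 5832 (SD, n = 3) in Klrk1-/- mice and 52133 ± 20722 (SD, n = 5) in WT mice, a log2 fold change of -0.69 (SE 0.27, limma adjusted p 0.171) that was -0.48 without WT SSD mouse 1.

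The diet by genotype interaction compared the response to SSD between the genotypes directly, over all 16 mice. The rise of Apoa4 was smaller in Klrk1-/- mice: its interaction was -1.84 on the log2 scale (SE 0.32, limma adjusted p 0.0150), and -1.64 without WT SSD mouse 1 (adjusted p 0.0028). It was called in all 27 alternatives without a fold limit, with adjusted p up to 0.046. On NCD Apoa4 was higher in Klrk1-/- mice and called, and on SSD its mean was lower in Klrk1-/- mice and not called. Apoa4 was the only 1 of the 10 genes called by limma and by edgeR, against 0.321% of all genes called with a positive interaction, 0.559% with a negative interaction and 0.880% in either direction. At an unadjusted p under 0.05, 4 of the 10 passed, against 17.3% of all genes. Pltp had an interaction of -1.32 (SE 0.37, adjusted p 0.0958), which DESeq2 called (-1.47, adjusted p 0.038), as limma did without WT SSD mouse 5 (-1.46, adjusted p 0.049). Without WT SSD mouse 1 it was -1.09 and not called (adjusted p 0.080). Of the 6 macrophage markers, Cd68 had a called interaction of -1.57 (adjusted p 0.011), and the other 5 were not called, at -1.31 to 0.35. Of the 5 markers of lipid-associated macrophages, Mmp12 was called at -3.52 (adjusted p 0.034), and the other 4 were not, at -2.39 to -0.14. Mmp12 ranged from 107 to 1060 over the WT mice on SSD, with a median of 188, and its interaction is not given without WT SSD mouse 1. Their part in these results was not tested. The interactions of the other 8 genes ranged from -0.37 for Apoc2 to 0.41 for Apoa5.

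Over the 16 mice, the pattern of Apoa4, whose group means span the widest range of the 10 genes, was compared with all of the 13067 other genes tested. The most similar by Pearson correlation of log2 values were 2010003K11Rik (0.976), the acyl-CoA thioesterase gene Acot2 (0.968), Gpat3, which encodes an acyltransferase of glycerolipid synthesis (0.965), the kinase gene Map4k4 (0.964) and Nt5dc2 (0.964). These values share the libraries and the 4 groups and are a description. Gpat3 had group means of 24.8 and 398 in WT mice on NCD and SSD and of 40.1 and 292 in Klrk1-/- mice.

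The rest of the lipoprotein pathway was read in 6 lists of genes, given in the order of the particle's life. Beside the counts that follow, 17.3% of all genes were called higher and 17.6% lower on SSD in WT mice, 13.4% and 16% in Klrk1-/- mice, and 6.41% and 6.66% in Klrk1-/- against WT mice on NCD. Of the 7 other apolipoprotein genes tested, none was higher and 4 were lower on SSD in each genotype, with list medians of -0.55 and -0.44. The part of the lower hepatocyte markers on SSD in this was not tested. Apom, which carries sphingosine-1-phosphate on HDL, fell by 1.01 in WT mice (SE 0.12, limma adjusted p 6.9e-05) and by 0.58 in Klrk1-/- mice (SE 0.12, adjusted p 0.0034), Apoc4 fell by 0.61 in WT mice and Apof by 0.56 in Klrk1-/- mice. At the same total per library Apom in Klrk1-/- mice (-0.32) and Apoc4 in WT mice (-0.26) were not called. On NCD, 2 of the 7 were lower in Klrk1-/- mice, Clu at -0.51 and Apom at -0.46.

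Among 15 genes of VLDL assembly and secretion, where Apob and Mttp act, none was higher and 3 were lower on SSD in WT mice, and 3 were higher and 3 lower in Klrk1-/- mice, with medians of -0.01 and -0.12. Tmem41b, a phospholipid scramblase of the endoplasmic reticulum, fell by 0.90 (SE 0.12, limma adjusted p 0.00020) and 0.69 (SE 0.10, adjusted p 0.00053), and Aadac, which hydrolyses stored triglyceride, fell by 0.67 and 0.58. In Klrk1-/- mice the carboxylesterase genes Ces1d and Ces1g rose by 1.10 and 0.77. On NCD, 1 of the 15 was higher in Klrk1-/- mice, Smlr1 at 0.49, and none was lower.

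Among 7 genes of plasma lipolysis, the step that Apoc2, Apoc3 and Apoa5 act on, 3 were higher and 1 lower on SSD in WT mice and 1 was higher and 1 lower in Klrk1-/- mice, with medians of 0.48 and 0.10. Lpl, lipoprotein lipase itself, rose by 1.42 in WT mice (SE 0.51, limma adjusted p 0.0490), a call lost in 13 of 20 alternatives and a value of 0.86 without WT SSD mouse 1, and by 0.73 in Klrk1-/- mice (SE 0.11, adjusted p 0.00040). Angptl4, an inhibitor of the lipase, rose by 1.28 in WT mice (SE 0.17, adjusted p 0.00016). Lmf1, which the lipase needs to mature, fell by 0.62 and 0.50, but at the same total per library it was not called (-0.27 and -0.25). On NCD, 2 of the 7 were higher in Klrk1-/- mice, Angptl8 at 1.70 and Lpl at 0.62, and 1 was lower, Lipg at -0.90.

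Among 10 genes of lipoprotein uptake, on which Apob and Apoe act as ligands, 5 were higher and 3 lower on SSD in WT mice and 5 higher and 1 lower in Klrk1-/- mice, with medians of 0.03 and 0.40. The receptor gene Vldlr rose by 2.59 (SE 0.30, limma adjusted p 7.6e-05) and 1.54 (SE 0.33, adjusted p 0.0049), and Mylip, which encodes a ubiquitin ligase for lipoprotein receptors, rose by 1.40 and 0.95. Sdc1, a heparan sulfate proteoglycan that binds remnants, fell by 0.59 and the remnant receptor gene Lrp1 by 0.42 in WT mice, and Lrpap1, which encodes a chaperone of such receptors, fell by 0.36 in Klrk1-/- mice. At the same total per library none of these 3 was called, at -0.24, -0.08 and -0.11. Between the genotypes, Sdc1 at -0.53 and Lsr at -0.25 were the 2 of 10 lower on NCD. On SSD limma called none of the 10, against 2.90% of all genes called in either direction. At an unadjusted p under 0.05, 3 of the 10 passed on SSD, against 22.9% of all genes.

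Among 5 genes of HDL formation, the partners of Apoa1, 1 was higher on SSD in WT mice and 2 in Klrk1-/- mice, and none was lower, with medians of -0.00 and 0.16. The cholesterol exporter gene Abcg1 rose by 1.59 (SE 0.25, limma adjusted p 0.00061) and 0.78 (SE 0.15, adjusted p 0.0026). In WT mice on SSD it ranged from 269 to 699, with a median of 288, and its call held in all 21 alternatives, that without WT SSD mouse 1 among them. Abca1, which hands cholesterol to Apoa1, rose by 0.25 in Klrk1-/- mice, a call lost in 9 of 19 alternatives. On NCD Abca1 was lower in Klrk1-/- mice than in WT mice, at -0.63.

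Among 16 transcription factors and coactivators of these genes, 2 were higher and 6 lower on SSD in WT mice and 2 higher and 2 lower in Klrk1-/- mice, with medians of 0.01 and 0.11. Srebf2, the activator of sterol synthesis, fell by 1.24 (SE 0.11, limma adjusted p 6.2e-06) and 0.98 (SE 0.10, adjusted p 3.3e-05), and Ppara, the receptor of fatty acids, rose by 0.71 and 0.52, the latter not called without Klrk1-/- SSD mouse 3 (0.38). Foxo1 rose by 0.72 and Cebpa fell by 0.64 in WT mice, and in Klrk1-/- mice Srebf1 rose by 0.41 and Nr1h3 fell by 0.26, calls lost in 6 and 10 of 19 alternatives. On NCD, Ppargc1a at 1.28 and Nr1d1 at 1.22 were higher and Srebf1 at -0.42 and Nr5a2 at -0.42 lower in Klrk1-/- mice. Of the differences named here and above for these lists on NCD, those of Clu, Apom, Lpl, Lipg, Sdc1, Lsr, Srebf1 and Nr5a2 were each lost in 4 to 16 of 20 alternatives, single mice left out among them. That of Nr1d1 was lost in 2 of 20. Nr5a2 was the only 1 of the 16 with a called interaction (0.73, SE 0.15, limma adjusted p 0.0281), against 0.880% of all genes. This call was lost in 10 of 27 alternatives.

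**Figure D5:**
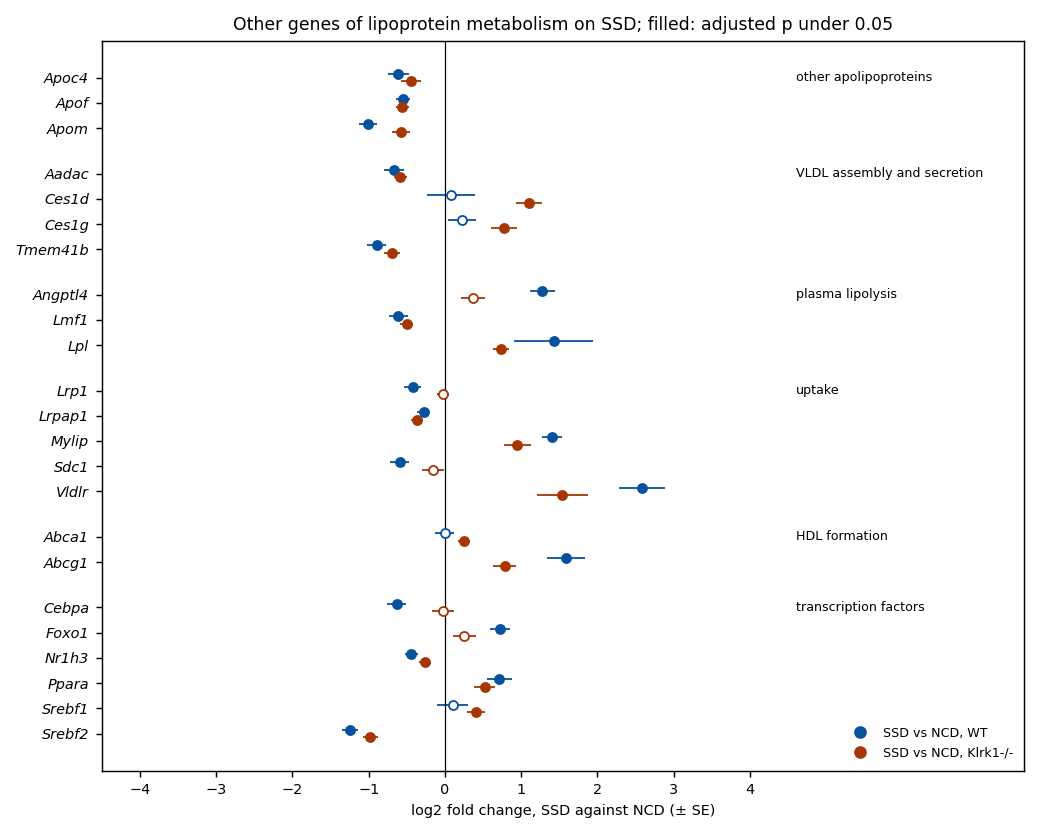
Log2 fold change of SSD against NCD (horizontal axis) with its SE, in WT mice and Klrk1-/- mice, of the other genes of lipoprotein metabolism named for the diet, grouped by list (vertical axis), with filled points where the limma adjusted p was under 0.05. In WT mice Srebf2 lies farthest to the left at -1.24 and Vldlr farthest to the right at 2.59.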

How the data were processed

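Whole-liver RNA of 16 mice was sequenced as single reads, which the authors checked with FastQC, aligned to GRCm39 with STAR and assigned to GENCODE genes with FeatureCounts. Their methods name a total RNA kit and the labels an mRNA kit. The authors deposited a signal, here called normalized count: reads per gene over a factor that is the same for all genes of a sample. Dividing by the step of each sample gave whole reads for 100% of values (tolerance 0.02), between 19892025 and 28936707 reads per library. Gene length in the level per kilobase is the deposited length, whose definition is not given. Each library was taken as 1 mouse. The exact permutation p-values rest on the values of these mice alone. In limma the variance of each gene is also drawn towards a trend over all genes by level. For abundant genes the SE can therefore differ from their own spread between mice. For Apoe in Klrk1-/- against WT mice on SSD the SE was 0.26 (limma adjusted p 0.425), and the exact permutation p was 0.0357. In all 25 pairs of mice within a group, counts differed beyond sampling error (chi-square per gene 14.2 to 100.8).

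Groups were compared with limma-trend (limma 3.58.1, R 4.3.3) on log2(normalized count + 1) for genes with a mean of at least 10, each model holding the 2 groups of its comparison (for the interaction, all 4 groups) and Benjamini-Hochberg adjustment over all genes. Called means an adjusted p under 0.05, with no fold limit, and fold changes are on this log2 scale. For the 10 genes an exact permutation test over mice, two-sided, was added. Alternatives were other pseudocounts and filters, fold limits of 1.5 and 2, no variance trend, robust variances, the same total per library, quantile normalization, edgeR 4.0.16 and DESeq2 1.42.0 on the recovered reads, all 4 groups in 1 model, the replicate number as a block and each mouse left out in turn. Fold limits were applied to counts of calls, and the numbers of alternatives given for a gene leave them out. On simulated data the diet comparison in WT mice recovered 97% of genes changed by 1.5 on the log2 scale and 71% of those changed by 0.8, and the interaction 85% and 30%. The simulation changed few genes, set the spread between mice by a formula and held no mouse that stood apart. These rates therefore need not hold for the real data.

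The 10 genes and the pathway and marker lists were chosen with earlier results of these data known. Some genes of 2 pathway lists are not reported here and were left out of their counts. Named genes outside the 10 are, per list, comparison and direction, up to 2 with the largest called change, the 5 most like Apoa4, the markers beside a result, and genes that share exon bases with the 10. Shared exon bases were read from a later GENCODE annotation than that of the authors, so they can lie outside a gene as deposited. Promoters were searched for 6 motifs, of which 2 are shown.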

Additional observations from a re-analysis of the deposited data

Results flagged for a closer look

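The diet effect on Apoa4 differed between the genotypes by a test of the difference itself: the diet by genotype interaction was -1.84 on the log2 scale (SE 0.32, limma adjusted p 0.0150), from a rise of 3.60 in WT mice and of 1.76 in Klrk1-/- mice. Every mouse on SSD was above every mouse on NCD in both genotypes. A search for single mice far from the rest of their group, over 30 combinations of gene and group with 4 or 5 mice, found 0, where chance would flag about 1 in 20.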

How the results depend on the processing

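Of 1070 alternative values of the 10 genes, 991 kept direction and call, 29 lost the call, 27 gained it and 23 turned direction. With fold limits of 1.5 and 2 the genes called fell from 4 to 3 and 1 for the diet in WT mice and from 6 to 4 and 2 in Klrk1-/- mice. For the genotype on NCD they fell from 4 to 2 and 1, and 2 were also called without the variance trend. Over all genes, 1564 higher and 958 lower passed 1.5 for the diet in WT mice, and 800 and 379 passed 2. In Klrk1-/- mice these were 844 and 852, and 327 and 377. For the genotype on NCD they were 375 and 369, and 109 and 110, and without the variance trend 404 and 361 were called. DESeq2 called more of the 10 in each comparison, 5 in place of 4 for the diet in WT mice and 8 in place of 6 in Klrk1-/- mice. For the genotype it called 6 in place of 4 on NCD and 3 in place of 0 on SSD, and for the interaction 2 in place of 1. By edgeR 4, 6, 5, 0 and 1 were called. Over all genes, in the same order, DESeq2 called 2499 higher and 2438 lower, 1771 and 2049, 1073 and 1164, 535 and 685, and 186 and 274. With limma these were 2265 and 2303, 1723 and 2067, 823 and 856, 160 and 221, and 42 and 73. With edgeR they were 2267 and 2332, 1864 and 1960, 846 and 881, 140 and 171, and 36 and 54. Leaving out 1 mouse gave 3 to 5 calls for the diet in WT mice, 5 to 7 in Klrk1-/- mice, 2 to 4 for the genotype on NCD (2 without WT NCD mouse 1 or 2 or Klrk1-/- NCD mouse 2 or 3), 0 on SSD and 1 to 2 for the interaction (2 without WT SSD mouse 5). Over all genes it gave 1729 to 2283 higher and 1841 to 2262 lower for the diet in WT mice, and 1043 to 1719 and 1354 to 1991 in Klrk1-/- mice. For the genotype these were 352 to 1066 and 365 to 1123 on NCD, and 15 to 292 and 30 to 425 on SSD. For the interaction they were 11 to 49 and 26 to 138.

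In no comparison did every pair of same-numbered mice correlate above 0.1 in their deviations (-0.146 to -0.0384 for the diet in WT mice, -0.0303 to 0.153 in Klrk1-/- mice, -0.0964 to 0.0834 for the genotype on NCD, -0.0199 to 0.237 on SSD and -0.316 to 0.246 for the interaction), so the numbers were not taken to pair the mice. With the replicate block 3 genes were called for the diet in WT mice (Apoa1, at -0.57, lost its call), 6 in Klrk1-/- mice, 4 for the genotype on NCD, 0 on SSD and 1 for the interaction (Apoa4, at -1.99). Over all genes, in the same order, the block gave 1423 higher and 1551 lower, 1476 and 1745, 1116 and 1241, 263 and 447, and 13 and 38.

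Values that turned direction were mostly small. Under quantile normalization they were, for the diet, Apoa1 0.17, Apoa2 0.018 and Mttp 0.19 in WT mice and Apoa1 0.20 and Apoa2 0.30 (called) in Klrk1-/- mice, for the genotype on NCD, Apoa5 0.22 and Apoe -0.13, and for the interaction, Apoa1 0.080, Apoa5 -0.039 and Apob -0.14. At the same total Mttp was 0.26 for the diet in WT mice. Without 1 mouse, Apoa5 ranged from -0.0251 to 0.0968 for the diet in WT mice and from -0.0787 to 0.0581 for the genotype on NCD, and the interaction from -0.168 to 0.0382 for Apoa1, from -0.0406 to 0.184 for Apoa2 and from -0.178 to 0.0376 for Apoc3, none of them called. The same total gave 6315 genes higher and 720 lower for the diet in WT mice, against 2265 and 2303 as reported, and 4828 and 806 in Klrk1-/- mice, against 1723 and 2067. The cause was not tested.

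The share of reads on the 10 genes was 4.39%, 5.22%, 5.16% and 5.88% on average in WT mice on NCD and SSD and Klrk1-/- mice on NCD and SSD, 4.84%, 5.63%, 5.99% and 6.42% without mitochondrially encoded genes, and 6.85%, 7.57%, 8.45% and 8.70% without the 50 genes with most reads (the 10 genes kept). Depths were 19892025 to 28936707 reads per library, and comparisons with Klrk1-/- mice on SSD rest on 3 mice of that group.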
